A study of Homo sapiens with 2 samples.

Results

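Caveolae are small flask-shaped pits of the plasma membrane. Caveolins sit in the membrane as the scaffold of the pit, cavins form a coat on its cytoplasmic face, and EHD ATPases and PACSIN proteins act at its neck and on its curvature. Caveolae are abundant in fat, endothelial and muscle cells, where they buffer membrane tension and hold signalling proteins and lipids. The genes described here are 10 genes of this structure: the cavins CAVIN1, CAVIN2 and CAVIN3, the caveolins CAV1 and CAV2, the EH-domain ATPases EHD1, EHD2 and EHD4, and PACSIN2 and PACSIN3. They were chosen from measured values, because CAVIN1 had one of the largest differences between these arrays, and the other genes were added to it for their known place in caveolae. The 2.53-fold difference of CAVIN1 is therefore a description and supports nothing, while the question put to the other genes was whether the caveolins and other cavins follow it. Of 19775 genes with a probe set of their own, 12541 were measured, and 8 of the 10 caveola genes were among them.

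The samples were K562 cells, a human line from a chronic myeloid leukaemia with erythroid and megakaryocyte features. One group carried the control retroviral vector pMSCV and the other a retrovirus that overexpresses PML4, an isoform of the promyelocytic leukaemia protein. Both were grown in medium with serum and selected with G418 for 3 weeks, and each array took 6 µg of total RNA. Each group holds 1 array, so array, culture, selection and PML4 cannot be told apart, no difference has a replicate error, and no test was made between the groups.

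Signals are MAS5 intensities in arbitrary units, a summary over the probes of a probe set. The floor was set at the median human signal, 72.4, and a probe set counted as measured if either array read it above the floor. Lower signals were raised to the floor before log2 was taken, so that a difference with 1 array at the floor is a bound. A gene took its measured probe set of highest mean log2 signal, and it was called when the arrays differed by at least 2-fold. A signal also depends on how well its probes bind, so signals are compared between arrays and not between genes. Over 19460 pairs of measured probe sets of the same gene, the median gap between their log2 differences was 0.30. This gap stands in for an error and covers neither that between arrays nor that between cultures.

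The median measured gene differed by -0.05 on the log2 scale, and 44.7% of measured genes had a higher signal with PML4. The difference moved with signal: its median was -0.24 in the 25% of genes with the lowest signal and 0.05 in the 25% with the highest. Among the 11051 genes above the floor on both arrays 48.2% were higher. The deposited scaling gave 154 genes called higher and 402 called lower, while quantile normalization gave 196 and 281. Probe sets of PML itself, the overexpressed gene, did not move one way. Of 7 above the floor on both arrays 5 were higher, led by 210362_x_at at 7.12-fold and 211013_x_at at 6.41-fold, and 2 were lower, led by 206503_x_at at 5.92-fold. The labels could thus be checked against PML only in part. Of 10 erythroid markers 8 had a probe set to themselves, all of them measured. GATA1, which drives erythroid genes, was at 2333.2 with the control vector and 2821.9 with PML4. Of its 2 measured probe sets 1 was higher and 1 lower.

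Of the 30 probe sets that the annotation pairs with the 10 genes, 20 lay above the floor on both arrays, 3 on 1 array and 7 on neither. Each of the 30 was annotated to 1 gene. Of the 20 above the floor on both arrays, 14 were higher with PML4 and 6 were lower, where 46.1% of all 25219 such probe sets were higher. The 14 include all 3 probe sets of CAVIN1, which chose the list, and 4 of EHD1 alone, so this count supports nothing. As deposited, the only one of the 23 measured ones past 2-fold was 208789_at of CAVIN1, against 1.3% of all 29370 measured probe sets upward. None was past 2-fold downward, against 3.22% of all measured probe sets. As genes, 5 of the 8 measured members were higher and 3 lower. CAVIN1 was the only call, against 1.23% of all measured genes called higher and 3.21% called lower. Because CAVIN1 chose the list, that count carries no weight. The median difference of the 8 was 0.12 on the log2 scale and that of the 7 without CAVIN1 was 0.02, beside -0.05 for all measured genes.

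**Figure D1:**
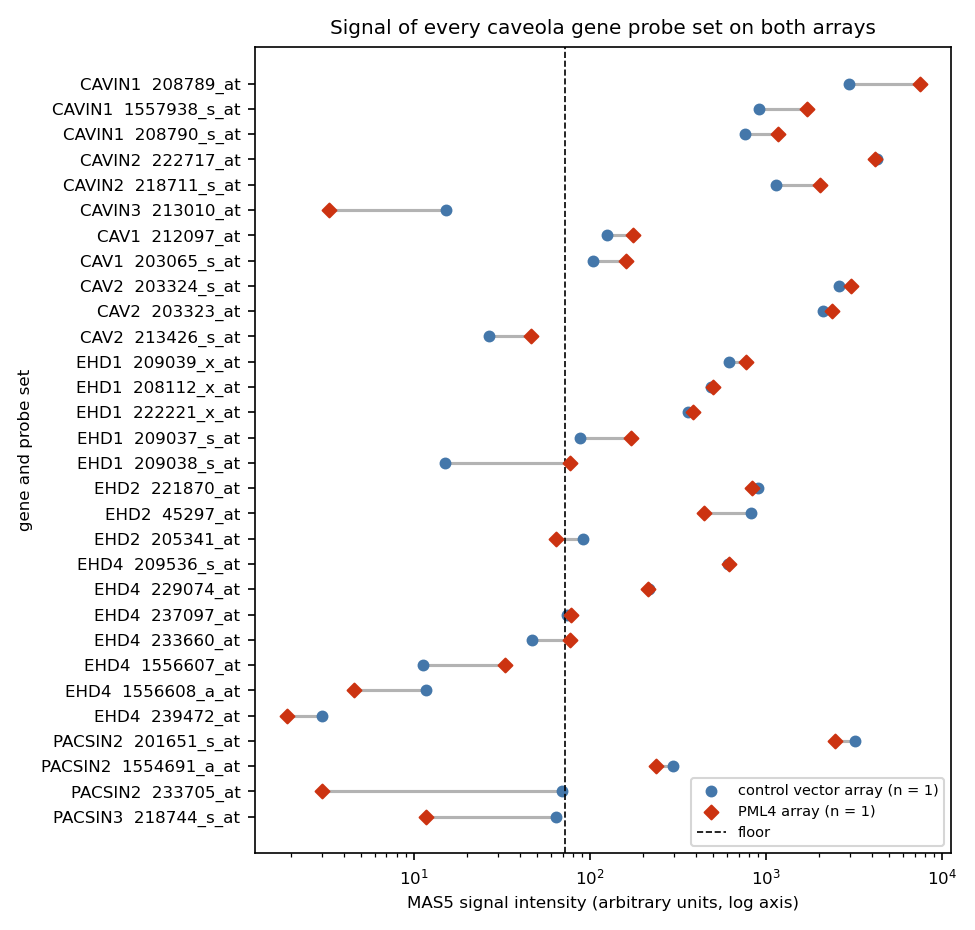
MAS5 signal intensity (log axis, arbitrary units) of all 30 probe sets of the 10 caveola genes, with a circle for the control vector array, a diamond for the PML4 array and a dashed line at the floor of 72.4. The diamonds of all 3 CAVIN1 probe sets lie to the right of their circles, CAVIN3 and PACSIN3 lie left of the floor, and most other pairs above the floor lie close together.

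CAVIN1, first described as the polymerase I and transcript release factor PTRF, is the cavin needed for caveolae to form. Its probe set 208789_at was at 2954.6 with the control vector and 7460.4 with PML4, 2.53-fold higher. The probe set 1557938_s_at was at 907.5 and 1710.5, a 1.88-fold higher signal. Another, 208790_s_at, was at 757.6 and 1175.8, 1.55-fold higher. A bulk signal cannot tell more cells with CAVIN1 from more CAVIN1 RNA per cell. All 3 probe sets were higher with PML4, but their log2 differences ran from 0.63 to 1.34, a range wider than the typical gap between probe sets of a gene. The size of the CAVIN1 difference depended on the probe set read, and averaged over the 3 it was 0.96 on the log2 scale, just under the size of a call. By its value of 1.34 CAVIN1 ranked 51 from the top among the 12541 measured genes. Among the 25% of genes with the highest signal it ranked 3. In that group 0.51% of genes were called higher and 0.702% lower. These ranks repeat the value that chose the gene.

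CAVIN2, the serum deprivation response protein SDPR, can bend membranes into tubules when it is abundant. It did not follow CAVIN1 in its gene value. The probe set 222717_at, which stands for the gene, was at 4269.6 with the control vector and 4174.9 with PML4, a log2 difference of -0.03, which was 0.02 after centring on the median gene. The other, 218711_s_at, was at 1146.0 and 2016.9, which is 1.76-fold higher and lies inside the range of the CAVIN1 probe sets. The pair of CAVIN2 probe sets thus gave different answers, with a mean log2 difference of 0.39, and no further probe set was there to decide between them. Probe sets ending in _s_at can read several transcripts, and which transcripts each one reads was not analysed here.

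CAVIN3, a cavin that binds protein kinase C delta, had a single probe set. It was at 15.2 with the control vector and 3.3 with PML4, under the floor on both. No difference was read from it, and these arrays give no answer on CAVIN3. CAVIN4, the cavin of muscle and not a member of the list, was likewise under the floor, at 41.8 and 34.3.

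CAV1 encodes caveolin-1, the main scaffold of caveolae outside striated muscle. Its probe set 212097_at was at 125.2 with the control vector and 175.9 with PML4, 1.40-fold higher. The probe set 203065_s_at was at 104.0 and 161.0, 1.55-fold higher. Both were above the floor on both arrays and higher with PML4, at log2 differences of 0.49 and 0.63. The larger of them nearly equalled the smallest CAVIN1 difference, which also rounds to 0.63, and neither reached the size of a call. These signals lie within the lowest 25% of measured genes. In that group the SD of gene differences was 0.55 and their median -0.24, against 0.33 and 0.05 in the 25% with the highest signal. Of all measured genes 8.41% had a larger value upward than CAV1. After quantile normalization the CAV1 difference was 0.68.

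CAV2 encodes caveolin-2, which forms complexes with caveolin-1 and needs it to reach the plasma membrane. Its probe set 203324_s_at was at 2596.5 with the control vector and 3019.0 with PML4, 1.16-fold higher. The probe set 203323_at was at 2111.7 and 2376.5, 1.13-fold higher. Another, 213426_s_at, was under the floor at 26.8 and 46.3. The measured pair agreed closely, at 0.22 and 0.17 on the log2 scale, below all 3 CAVIN1 differences and smaller than the typical gap of 0.30 between probe sets. CAV1 and CAV2 therefore had signals in the same direction as CAVIN1 in all 4 measured probe sets. As deposited all 4 differences were smaller than those of CAVIN1, but after quantile normalization the CAV1 probe sets, at 0.68 and 0.84, exceeded the lowest CAVIN1 probe set at 0.64, and after loess centring they did so at 0.64 and 0.78 against 0.63. Among all genes 44.7% had a higher signal, and with 1 array a group the direction of such small values has no error to be set against. CAV3, the caveolin of muscle, was under the floor at 52.5 and 9.1.

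**Figure D2:**
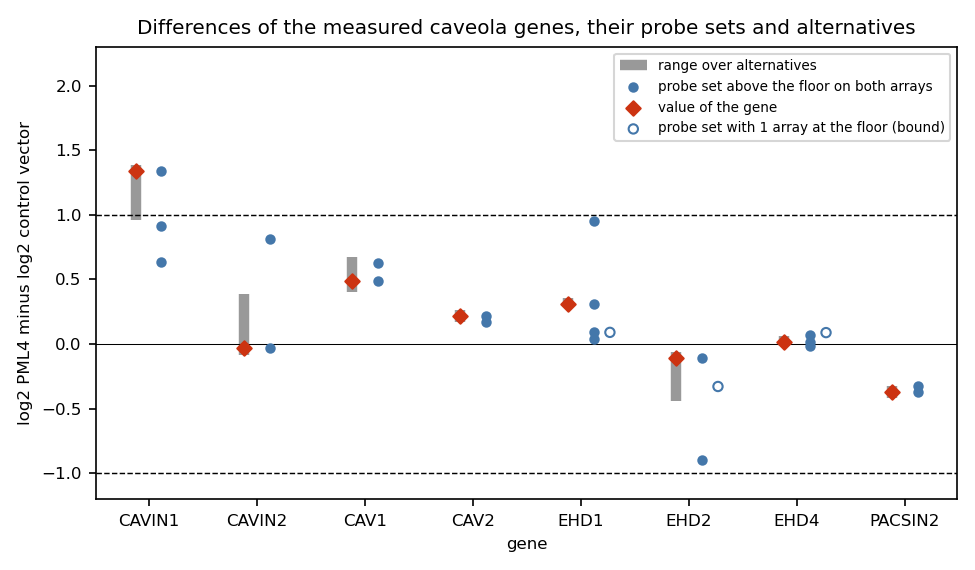
Log2 difference of PML4 minus control vector for the 8 measured caveola genes, with a diamond for the value of the gene, a grey bar for its range over the alternative settings, filled circles where both arrays read the probe set above the floor and open circles for bounds. Dashed lines mark 2-fold, and the plot shows CAVIN1 alone above the upper line, with its range reaching down to 0.96, and CAVIN2 with 1 probe set at 0.82 and 1 at -0.03.

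CAV1 and CAV2 are neighbours on chromosome 7. The bases before their annotated starts are shown with those of CAVIN2, because these are the caveolins and the cavin that were read beside CAVIN1. They come from RefSeq on GRCh38.p14, whose promoter table matched 7 of the 10 genes, and CAVIN1, CAVIN3 and PACSIN3 were not among them. Each run is the 250 bases before the start, 5′ to 3′ on the strand of the gene, and capitals mark the GC box GGGCGG or its reverse complement CCGCCC, the motif that SP1-type factors bind. The CAV1 window lies at chr7:116524759-116525008 on the plus strand, that of CAV2 at chr7:116499488-116499737 on the plus strand, and that of CAVIN2 at chr2:191847089-191847338 on the minus strand.
CAV1: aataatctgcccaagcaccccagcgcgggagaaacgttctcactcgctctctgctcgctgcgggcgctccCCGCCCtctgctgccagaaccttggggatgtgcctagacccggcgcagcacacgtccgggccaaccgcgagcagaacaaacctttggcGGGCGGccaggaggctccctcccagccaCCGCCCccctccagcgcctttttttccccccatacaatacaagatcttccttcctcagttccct
CAV2: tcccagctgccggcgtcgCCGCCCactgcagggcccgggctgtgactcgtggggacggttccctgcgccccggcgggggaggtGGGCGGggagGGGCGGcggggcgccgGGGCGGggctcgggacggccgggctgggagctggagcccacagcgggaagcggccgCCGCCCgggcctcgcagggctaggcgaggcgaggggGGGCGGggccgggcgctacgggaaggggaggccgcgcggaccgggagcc
CAVIN2: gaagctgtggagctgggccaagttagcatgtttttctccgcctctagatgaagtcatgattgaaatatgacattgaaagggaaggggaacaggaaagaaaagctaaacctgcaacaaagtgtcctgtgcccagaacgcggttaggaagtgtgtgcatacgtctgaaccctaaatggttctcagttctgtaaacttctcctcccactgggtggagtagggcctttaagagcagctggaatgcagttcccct

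The 3 windows differed in composition. The CAV2 window held 6 GC boxes and 35 CG pairs, the CAV1 window 3 and 18, and the CAVIN2 window 0 and 4. At least 1 GC box was present in 42.5% of 34943 windows of the same length and source, and the median window held 11 CG pairs. Unlike the 3 shown, those windows were not limited to the annotated start of a gene. As many CG pairs as in CAV2 or more were found in 5.80% of windows. A match is a run of letters and not a binding site. SP1 itself was at 3388.9 with the control vector and 3503.7 with PML4.

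EHD1, an ATPase of endosomal recycling that can also act at caveolae, had 5 measured probe sets. The 4 that both arrays read above the floor were all higher with PML4 but by very different sizes, and the fifth passed it with PML4 only. The 3 with the highest signal end in _x_at, a suffix for probes that can bind other transcripts as well. Of these, 209039_x_at was at 620.2 with the control vector and 767.1 with PML4, 208112_x_at at 488.7 and 500.9, and 222221_x_at at 362.0 and 387.0. Their log2 differences were 0.31, 0.04 and 0.10. The probe set 209037_s_at was at 87.7 and 170.1, a 1.94-fold higher signal near the floor. After quantile normalization its log2 difference was 1.19 and after loess centring 1.11, both past 2-fold. The last, 209038_s_at, was at 15.1 and 77.1, so that its bound is 1.06-fold while its unfloored signals lie far apart. With a pseudocount of 32 in place of the floor its log2 difference was 1.21. The gene value of 0.31 is close to the typical gap between probe sets, and it came from a probe set open to cross-hybridisation. EHD paralogs share much of their sequence, and which of them these probes read was not analysed here.

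EHD2, the ATPase that sits at the neck of caveolae and stabilises them at the membrane, went the other way. Its probe set 221870_at was at 903.8 with the control vector and 837.5 with PML4, a log2 difference of -0.11. The probe set 45297_at was at 826.1 and 444.2, 1.86-fold lower. The last, 205341_at, was at 90.9 and 64.1, at least 1.26-fold lower. That probe set passed the floor on the control array only, so it could not come out higher. The 2 read on both arrays were lower with PML4, opposite to CAVIN1, with a mean of -0.50 on the log2 scale.

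EHD4, a further ATPase of endocytic traffic that can join EHD2 at caveolae, differed little in the probe sets read above the floor on both arrays. Of its 7 probe sets, 4 were measured. The probe set 209536_s_at was at 606.9 with the control vector and 613.4 with PML4, and 229074_at was at 215.7 and 213.9. The 2 near the floor were 237097_at, at 74.0 and 77.8, and 233660_at, at 47.0 and 77.0. The log2 differences of the 3 above the floor on both arrays lay between -0.01 and 0.07. The probe set 233660_at passed the floor with PML4 only, so its 0.09 is a lower bound, and its unfloored difference was 0.71. EHD3, the remaining paralog and no member, was at 133.0 and 31.5 in 230740_at, at least 1.84-fold lower, with its other probe sets under the floor.

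PACSIN2, an F-BAR protein that shapes the membrane of caveolae, was lower in both measured probe sets. The probe set 201651_s_at was at 3179.4 with the control vector and 2453.3 with PML4, 1.30-fold lower. The probe set 1554691_a_at was at 296.2 and 237.0, 1.25-fold lower, and 233705_at was under the floor at 69.2 and 3.0. The measured differences, -0.37 and -0.32, lay closer to each other than the typical gap of 0.30. PACSIN3, its relative in muscle, had 1 probe set at 64.6 and 11.8, under the floor on both arrays. PACSIN1, the neuronal relative and no member, was at 199.2 and 126.2, 1.58-fold lower.

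**Figure D3:**
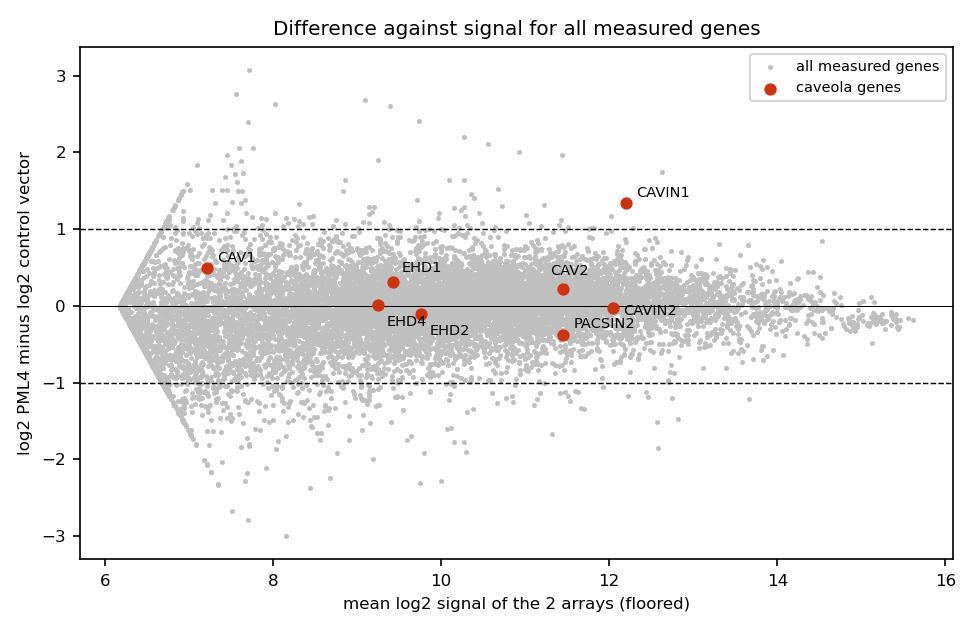
Log2 difference of PML4 minus control vector against the mean log2 signal of the 2 arrays, with a grey point for each of 12541 measured genes, red points for the 8 measured caveola genes and dashed lines at 2-fold. CAVIN1 lies at the upper edge of the cloud at its signal, while CAV1, CAV2, CAVIN2, EHD1, EHD2, EHD4 and PACSIN2 lie inside it.

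In order of gene value, CAVIN1 at 1.34 was followed by CAV1 at 0.49, EHD1 at 0.31, CAV2 at 0.22, EHD4 at 0.02, CAVIN2 at -0.03, EHD2 at -0.11 and PACSIN2 at -0.37 on the log2 scale. Apart from the step from CAVIN1 to CAV1, neighbours in this order lay closer than 0.30, so their order is not settled by these arrays. The step from CAVIN1 to CAV1 is not settled either, since it starts from the value that chose CAVIN1. After quantile normalization the CAV1 probe set 203065_s_at was at 0.84 and the CAVIN1 probe set 208790_s_at at 0.64. No p-value stands behind any step.

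Other parts of the caveola and its surroundings were read from lists of related genes. Of 7 other caveola genes 6 were on the array with a probe set to themselves, and 4 were measured. None was called. EHD3 and ROR1 passed the floor on the control array only, which fixed their direction, and PACSIN1 and DNM2, read on both arrays, had lower signals with a median of -0.70 on the log2 scale. The 3 with the highest signal were DNM2, PACSIN1 and EHD3. DNM2, dynamin-2, which cuts vesicles from the membrane, was at 712.6 and 427.0, but its 2 probe sets differed in opposite directions. ROR1, a receptor kinase reported to hold CAVIN1 and CAV1 together, was at 81.2 and 17.7, at least 1.12-fold lower.

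Scaffolds of flat lipid rafts gave no call, where 1.23% of all measured genes were called higher and 3.21% lower. Of 8 measured genes 4 were higher and 4 lower, with a median of -0.01. FLOT1, flotillin-1, was at 4401.1 with the control vector and 4221.0 with PML4. STOM, stomatin of the red cell membrane, was at 3260.5 and 4744.2, 1.46-fold higher, and ERLIN1 was at 2744.8 and 2426.5.

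Among genes with BAR domains, the membrane-bending fold that PACSIN2 also carries, 5 of 14 measured were higher and 9 lower, with a median of -0.22. The only call was BIN1, amphiphysin-2, 2.58-fold lower at 366.6 and 141.9, and all 5 of its probe sets were lower. Among all measured genes 3.21% were called lower. The 3 with the highest signal were SNX9 at 2881.9 and 1707.4, FCHO2 at 2103.9 and 1553.7, and FNBP1 at 1132.8 and 1744.9.

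Clathrin-mediated endocytosis, the other main route into the cell, was close on both arrays. Of 18 measured genes 10 were higher and 8 lower, with a median of 0.03. The clathrin heavy chain CLTC was at 18476.5 and 18656.8, the light chain CLTA at 9935.6 and 10214.6, and the adaptor subunit AP2S1 at 8959.9 and 8696.0. EPN1, epsin-1, was the only call, 2.18-fold higher at 92.9 and 202.9 in its single measured probe set. Among all measured genes 1.23% were called higher. Partners of EHD proteins and recycling genes held no call in 15 measured, with 8 higher, 7 lower and a median of 0.04. No call in 15 is near the share of all measured genes, 1.23% called higher and 3.21% lower. RAB11A was at 9468.5 and 10569.1, RAB10 at 8472.5 and 8984.2, and ARF6 at 5179.6 and 6318.5. For RAB11A, 2 of the 3 measured probe sets were lower. RAB8A, a GTPase of transport to the surface, was at 2052.2 and 3250.6.

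Receptors and enzymes reported in caveolae held 2 calls in 12 measured genes, both lower. Of all measured genes 3.21% were called lower, and the count here was not tested against that share. Of the 10 above the floor on both arrays 4 were higher and 6 lower, with a median of -0.17, beside 51.8% lower among all such genes. The median of all 12 was -0.36. IGF1R, the receptor of insulin-like growth factor, was 2.20-fold lower at 838.7 and 380.7, and 3 of its 4 measured probe sets were lower. SRC, the kinase that phosphorylates CAV1, was 2.32-fold lower at 184.5 and 79.6, while its other measured probe set was higher. EGFR and TRPC1 were under the floor with PML4 only, so their values are bounds whose direction the floor fixed. Of the 3 with the highest signal, TGFBR1 was at 5251.6 and 7115.0, FYN at 2004.9 and 1973.7, and SCARB1 at 1849.1 and 1855.4. The median of the measured genes of this list was near 0 without the probe sets whose names end in _x_at or _s_at.

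Factors that act on caveola genes in other cells gave no call in 12 measured genes, beside 1.23% of all measured genes called higher and 3.21% lower. Of the 10 above the floor on both arrays 3 were higher and 7 lower, with a median of -0.24. SREBF1, a factor of lipid synthesis, came closest to a call at 744.1 and 1482.0, 1.99-fold higher, with its other measured probe set lower. FOXO3 was at 3728.0 and 2887.4 and TEAD1 at 2076.1 and 1924.3, but 2 of the 3 measured FOXO3 probe sets were higher. PPARG, the fat cell factor, and the YAP1 and WWTR1 coactivators with their targets CCN2 and ANKRD1 were under the floor on both arrays. CCN1, of the same list, was at 51.7 with the control vector and 89.9 with PML4. It passed the floor with PML4 only, which fixed its direction.

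**Figure D4:**
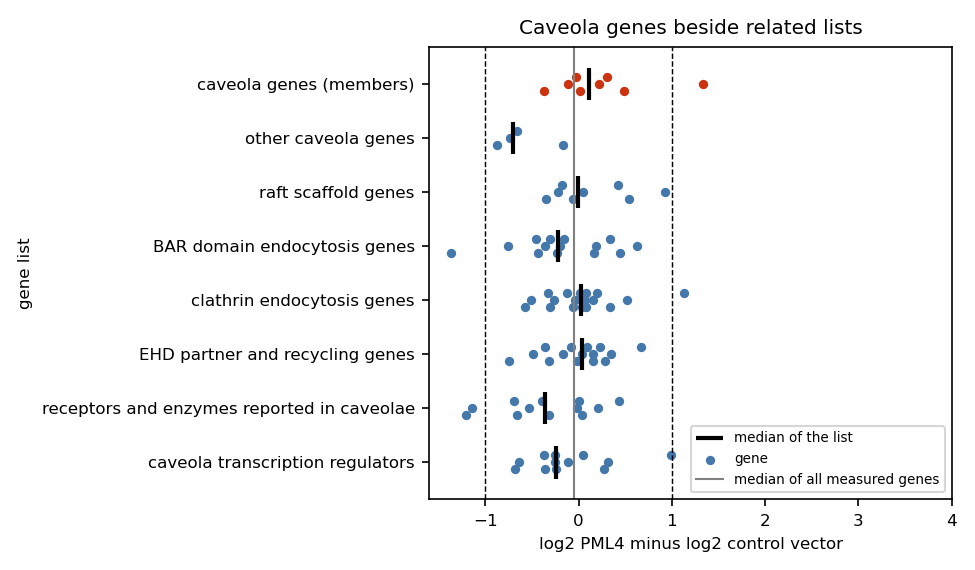
Log2 difference of PML4 minus control vector for each measured gene of the caveola members (red) and of 7 related lists (blue), with a black bar at the median of each list, a grey line at the median of all measured genes and dashed lines at 2-fold. CAVIN1 is the only red point beyond 2-fold, and the medians of the related lists, bounds included, run from -0.70 for the other caveola genes to 0.04 for EHD partner and recycling genes.

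Markers of cell types rich in caveolae were read beside CAVIN1. Of 8 endothelial genes only PECAM1 was measured, at 1512.1 and 2073.0, while CDH5, VWF, KDR, TEK, EMCN, ESAM and CLDN5 were under the floor on both arrays. Of 9 fibroblast genes 2 were measured, COL1A1 at 394.2 and 278.6 and DCN at 118.7 and 57.1, with COL1A2, COL3A1, LUM, PDGFRA, PDGFRB, THY1 and POSTN under the floor. Of 6 adipocyte genes CIDEC alone was measured, at 178.8 and 162.4, with ADIPOQ, PLIN1, FABP4, LEP and LIPE under the floor. All 6 smooth muscle genes were measured, but ACTA2, MYH11, TAGLN and LMOD1 passed the floor on 1 array only. The summed signal of the 6 was 1062.9 with the control vector and 816.4 with PML4. Without CNN1 the other 5 summed to 558.2 and 603.8. CNN1, calponin, was 2.37-fold lower at 504.7 and 212.6, and DES, desmin, was 2.06-fold higher at 219.7 and 452.7. Epithelial genes summed to 17838.7 and 19246.2, and KRT19, a keratin, was 2.27-fold higher at 1362.8 and 3098.8. The other 3 measured summed to 16475.9 and 16147.4. KRT18 was lower at 8594.7 and 7878.2, while EPCAM at 5870.4 and 6203.1 and KRT8 at 2010.8 and 2066.1 were slightly higher. CDH1 and KRT5 were under the floor. Of 7 megakaryocyte genes with a probe set 4 were measured, summing to 1435.7 and 1885.1, and TUBB1, the platelet tubulin, was 2.45-fold higher at 361.0 and 885.1. The other 3 summed to 1074.7 and 1000.0, with ITGA2B at 888.4 and 909.4, GP1BA at 109.1 and 42.1 and PF4 at 77.2 and 48.5. GP1BA and PF4 passed the floor on the control array only, which fixed their direction. Of the 8 erythroid genes 5 were higher and 3 lower, with a median of 0.17 on the log2 scale. Their summed signal was 46239.0 and 70010.3, and 28613.8 and 38356.6 without TFRC, the transferrin receptor, at 17625.2 and 31653.7. HBZ, zeta-globin, was 3.90-fold higher, EPOR, the erythropoietin receptor, 2.08-fold lower and ALAS2, the heme enzyme, 2.57-fold lower. The part of these markers in the CAVIN1 difference was not tested.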

How the data were processed

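Total RNA of K562 cells was read on 2 Affymetrix arrays, 1 per group. The authors deposited linear MAS5 signal intensities, each array scaled to a common level. The submitters' processing notes name MAS5 with no version or settings. Trimmed of 2% at each end, the arrays had means of 500.0 for control and 500.1 for PML4. GEO's array annotation gave 1 gene for 41091 of 54613 human probe sets, several for 1801 and none for 11721, and no gene was named from a probe set with several. RefSeq names of GRCh38.p14 changed no symbol. The annotation names no build for the array, so no coordinates of probes are given.

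From these intensities, log2 differences, calls and list medians were computed with Python 3.11.15, numpy 2.4.6 and pandas 2.3.3, and the code was tested on simulated data. Alternative settings moved the floor to the 25th or 75th percentile, replaced it with a pseudocount of 32, centred the genes on their median, applied quantile normalization or loess centring (statsmodels 0.14.6, span 0.4), averaged probe sets, dropped _x_at and _s_at probe sets, or called at 1.5-fold or 3-fold. The members and lists were chosen with earlier results of these data known. Genes named are all members, the called genes and the 3 of highest signal in each list, called or leading markers, and up to 3 measured neighbours on each side of CAVIN1, CAV1 and CAV2. Other genes were named after their values were seen. Having 2 arrays limits the precision of all values.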

Additional observations from a re-analysis of the deposited data

How the results depend on the processing

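CAVIN1 was higher under all 8 alternatives that change values, between 0.96 and 1.39 on the log2 scale. It was called in 7 of them, and the mean over its probe sets was under the size of a call, so that 0 caveola genes were called higher there, as also with calls at 3-fold. CAV1 ran from 0.40 to 0.68 over the 7 alternatives in which it was measured, and CAV2 from 0.17 to 0.27 over 8. CAVIN2 ran from -0.09 to 0.39 and changed direction in 2 of 8. EHD1 ran from 0.29 to 0.36, EHD2 from -0.44 to -0.06, EHD4 from -0.01 to 0.06 and PACSIN2 from -0.42 to -0.32. The EHD1 range covers 7 alternatives, since all its probe sets end in _x_at or _s_at and dropping these left no EHD1 value. With the floor at the 25th percentile, a signal of 17.2, 1 caveola gene was called lower: PACSIN3, at least 3.76-fold. That floor also gave 667 higher and 2000 lower calls among all genes and a median of -1.17 for the other caveola genes. Raising the floor to the 75th percentile left 50 and 63 calls and a median of -0.0226 for receptors and enzymes reported in caveolae, which was 0.0049 when _x_at and _s_at probe sets were dropped. Calls at 1.5-fold numbered 715 higher and 1487 lower, and at 3-fold 27 and 59. Of all calls 27.7% were higher as deposited, 22.5% with the pseudocount, 25.01% with the low floor, 35.0% after centring, 37.6% after loess centring, 41.1% after quantile normalization and 44.2% with the high floor. Except for the floors and thresholds, whose construction changes how many genes can pass, the cause of these shifts was not tested. No paired analysis was possible because each group holds 1 array. Signals near the floor, those of CAV1 among them, are the least precise.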

Other observations

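Genes next to CAVIN1 on chromosome 17 were also read. In the RefSeq order of GRCh38.p14 the protein-coding neighbours on one side are STAT3, STAT5A and STAT5B, and on the other ATP6V0A1, NAGLU and HSD17B1. None of the 6 was called, which is near the share of all measured genes, 1.23% called higher and 3.21% lower. STAT3, a signalling factor read by 4 measured probe sets, was at 8193.2 with the control vector and 6239.9 with PML4, with 2 probe sets higher and 2 lower. STAT5A was at 4303.8 and 4665.3, and STAT5B at 3908.5 and 2934.7. ATP6V0A1, a subunit of the proton pump, was at 2014.5 and 2454.4, and both of its probe sets were higher. NAGLU, a lysosomal enzyme, was at 355.0 and 407.6 and HSD17B1, a steroid enzyme, at 516.2 and 614.9. The gene values of the 6 ran from -0.41 to 0.28 on the log2 scale. Because CAVIN1 was chosen for its large difference, smaller values in its neighbours carry no weight.

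Around CAV2 and CAV1 on chromosome 7 none of the measured neighbours read was called, beside 1.23% of all measured genes called higher and 3.21% lower. TES, a focal adhesion protein, lies before CAV2 and was at 7304.0 and 6817.1. MET, the receptor of hepatocyte growth factor, lies after CAV1 and was at 597.6 and 601.2, and CAPZA2, an actin capping subunit, was at 5898.8 and 7569.3. Farther out, CTTNBP2 was at 156.6 and 233.6, SMIM30 at 3024.0 and 2559.3, and MDFIC at 79.9 and 7.4, at least 1.10-fold lower.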
